A study of Mus musculus with 25 samples.

Results

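RNA of 45 autosomal imprinted genes was followed through mouse 2-cell embryos and blastocysts. The genes were chosen by symbol from textbook lists of imprinted genes, and each of the 45 was found at 1 locus among the 24708 gene loci of the deposited tables. They lie on 10 chromosomes, with 18 of them on chromosome 7. The study asked how in vitro fertilisation (IVF) and a raised dose of the gene Fzr1, whose protein switches on the cell-cycle ubiquitin ligase APC/C, affect early embryos. The expression tables cover 11 of the 25 samples, all embryos of the BDF1 strain, and the labels name no other allele or agent. Fat of mice aged 4 months, labelled Fzr1-OE and Control, was used only through ontology tables. Blastocysts at embryonic day 4.0 were labelled Fzr1-OE (3 libraries) and Control (2 libraries). Embryos of the 2-cell stage at embryonic day 1.5 were labelled sIVF, IVF and WT (2 libraries each), where sIVF is a label left unexplained. How Fzr1 was raised, from which promoter, how the Control and WT embryos were obtained and how many embryos were pooled per library are not stated in these sources.

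An imprinted gene is transcribed mainly from the copy inherited from 1 parent. At most loci the choice is set by DNA methylation laid down in the egg or the sperm, which the zinc finger protein ZFP57 and its partners protect while the rest of the embryo's methylation is erased. At a few loci, such as Sfmbt2 and Slc38a4 in the mouse, it is set by histone H3K27 methylation carried over from the egg. Many imprinted genes control growth of the fetus and the placenta. The tables give the total RNA of each gene and do not tell the parental alleles apart, so a level here is not a measure of imprinting. The RNA of 2-cell embryos is also a mixture of transcripts stored in the egg and transcripts made by the embryo.

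Promoter sequence was examined because ZFP57 is known to bind the hexamer TGCCGC in its methylated form. RefSeq windows of 300 bases (250 before and 50 after a transcript start, assembly GRCm38.p6) were matched for 38 of the 45 genes, with 58 windows in all. The hexamer, read on either strand as TGCCGC or GCGGCA, was present in 15 of the 58 windows (25.9%), against 3813 of 32851 windows of the whole RefSeq table (11.6%). The median number of CpG dinucleotides was 15.5 in the windows of imprinted genes and 7 over the whole table, and the motif itself holds a CpG, so the shares are given as a description. The 5 windows below belong to genes with contrasting levels in the embryos. Capitals mark the hexamer, and each is written 5′ to 3′ on the strand of its gene.
Mcts2 (chr2:152686898-152687197, plus strand, 1 hexamer): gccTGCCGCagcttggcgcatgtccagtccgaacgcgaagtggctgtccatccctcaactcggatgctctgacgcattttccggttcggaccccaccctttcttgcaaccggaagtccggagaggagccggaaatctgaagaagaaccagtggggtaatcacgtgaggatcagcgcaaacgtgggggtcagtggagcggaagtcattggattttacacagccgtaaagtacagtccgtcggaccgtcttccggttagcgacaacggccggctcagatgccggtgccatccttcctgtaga
Mest (chr6:30737800-30738099, plus strand, 2 hexamers): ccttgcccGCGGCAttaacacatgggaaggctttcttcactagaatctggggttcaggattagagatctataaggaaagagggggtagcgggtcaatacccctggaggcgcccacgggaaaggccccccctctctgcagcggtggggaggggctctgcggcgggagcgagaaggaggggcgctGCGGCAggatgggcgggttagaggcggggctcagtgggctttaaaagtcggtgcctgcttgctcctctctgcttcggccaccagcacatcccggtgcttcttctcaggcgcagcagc
Usp29 (chr7:6730333-6730632, plus strand): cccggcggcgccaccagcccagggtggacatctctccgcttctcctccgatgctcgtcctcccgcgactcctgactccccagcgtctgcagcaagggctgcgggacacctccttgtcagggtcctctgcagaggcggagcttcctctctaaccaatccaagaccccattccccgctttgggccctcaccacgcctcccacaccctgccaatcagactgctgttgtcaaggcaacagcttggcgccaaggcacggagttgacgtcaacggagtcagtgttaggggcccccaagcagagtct
Phlda2 (chr7:143502475-143502774, minus strand): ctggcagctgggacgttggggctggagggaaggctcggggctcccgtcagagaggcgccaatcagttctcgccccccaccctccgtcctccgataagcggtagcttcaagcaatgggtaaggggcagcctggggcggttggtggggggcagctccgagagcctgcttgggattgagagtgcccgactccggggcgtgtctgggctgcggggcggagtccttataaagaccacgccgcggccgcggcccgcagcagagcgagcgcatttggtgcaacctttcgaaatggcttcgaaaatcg
Cd81 (chr7:143052500-143052799, plus strand): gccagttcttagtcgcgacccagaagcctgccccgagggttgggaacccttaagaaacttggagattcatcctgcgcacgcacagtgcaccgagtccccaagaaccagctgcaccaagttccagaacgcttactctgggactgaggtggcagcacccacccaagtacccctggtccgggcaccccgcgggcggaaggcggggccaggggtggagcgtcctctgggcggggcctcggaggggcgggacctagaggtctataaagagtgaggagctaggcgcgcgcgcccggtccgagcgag
The printed windows of Mcts2 and Mest held the hexamer, and the other 3 did not. A window at another start of Mest (chr6:30733256-30733555) held no hexamer. A further window of Mest (chr6:30737803-30738102) covers nearly the same bases as the printed one and was counted as well. The window of Usp29 shared 263 bases with that of Peg3, which is transcribed the opposite way. No match says only that these letters are absent from the window.

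Expression was given as FPKM, fragments scaled by transcript length and by the mapped fragments of the library, so levels can be set side by side between genes. The deposited confidence bounds implied 9324021 to 10483245 fragments per blastocyst library and 4740660 to 6376064 per 2-cell library. At about 1 FPKM, 2 standard deviations of counting error were 26.9% to 29.0% of the value in blastocysts and 28.7% to 32.6% in 2-cell embryos. Most marker genes matched the stage. The 9 trophectoderm markers summed to 3594 to 5774 FPKM over the blastocyst libraries, mostly Krt8 and Krt18, against 15.7 to 27.0 FPKM in 2-cell libraries. Both Control blastocyst libraries lay above both WT 2-cell libraries for 8 of the 9, and below them for 5 of 6 2-cell markers. The exceptions included Fgf4 and Gata4, markers of blastocyst cell types, with means of 8.21 and 6.56 FPKM in WT 2-cell embryos, against 1.21 and 0.744 FPKM in Control. The 2-cell marker Tdpoz4 had 6.89, 6.21 and 6.72 FPKM in libraries labelled Fzr1-OE, against 0 in Control. Of 10 cumulus and granulosa cell markers, Fshr, Cyp19a1, Amh, Foxl2, Inha and Has2 were listed at 0 in all 11 libraries. Of the other 4, Amhr2 had 1.12 to 8.17 FPKM, Tnfaip6 reached 3.48 FPKM in IVF replicate 2 and 3.92 FPKM in WT replicate 1, Star reached 0.691 FPKM and Ptx3 0.0399 FPKM. Fzr1 itself had 12.7, 15.5 and 17.1 FPKM in the libraries labelled Fzr1-OE, against 16.5 and 16.5 FPKM in Control (log2 difference -0.13, SE 0.16, adjusted p = 0.713, limma). No rise of Fzr1 RNA was thus detected in the libraries labelled Fzr1-OE, and whether these tables would count RNA from an added copy is not stated.

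Imprinted genes were a small part of the embryo's RNA and were led by a few genes. They summed to 0.137% to 0.150% of all FPKM in blastocysts and to 0.119% to 0.177% in 2-cell embryos. In blastocysts Snrpn, which encodes the spliceosome protein SmN, made up 46.1% to 48.8% of the summed FPKM of the 45 genes. In 2-cell embryos Phlda2, which encodes a pleckstrin-homology protein that restrains growth of the placenta, made up 38.4% to 62.7%. A mean of at least 1 FPKM over the stage was reached by 21 of the 45 in blastocysts (46.7%, against 38.2% of all loci) and by 16 in 2-cell embryos (35.6%, against 33.4% of all loci). Of the 21 genes known to be expressed from the paternal copy, 10 reached that level in blastocysts and 7 in 2-cell embryos. Of the 23 known to be expressed from the maternal copy, 10 did so in blastocysts and 8 in 2-cell embryos. Gnas, whose transcripts differ in the allele they come from, was counted apart.

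**Figure D1:**
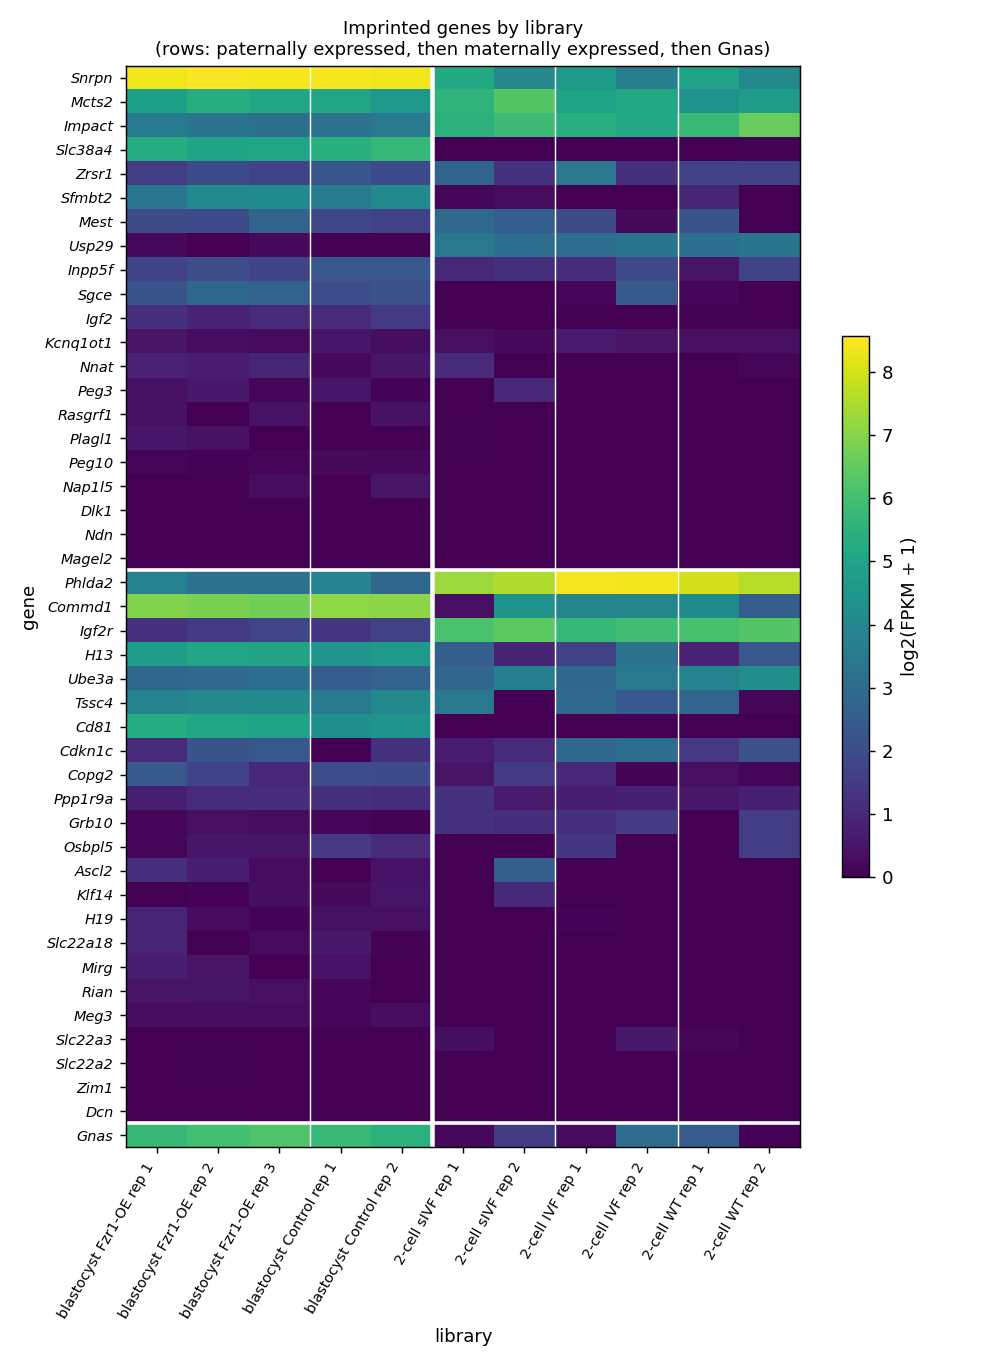
Level of each of the 45 imprinted genes (rows, ordered by known expressed allele and then by mean level) in each of the 11 libraries (columns), as log2(FPKM + 1). The blastocyst columns are dominated by Snrpn at 331 to 380 FPKM, the 2-cell columns by Phlda2 at 154 to 348 FPKM, and most rows are dark in both stages.

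Many classical imprinted genes were listed at or near 0. A listed 0 does not show that a gene was silent, since Tssc4 was at 9.77 FPKM in sIVF replicate 1 and at 0 in sIVF replicate 2. Over the 5 blastocyst libraries, Zim1, Dcn, Ndn, Magel2 and Slc22a3 were listed at 0 throughout. Over the 6 libraries of 2-cell embryos, 11 genes were listed at 0 throughout: Dlk1, Rian, Mirg, Nap1l5, Slc22a18, Dcn, Ndn, Magel2, Slc22a2, Cd81 and Rasgrf1. The Dlk1-Meg3 cluster, which holds the Notch-ligand-like growth regulator Dlk1 and the non-coding RNAs Meg3, Rian and Mirg, had at most 0.645 FPKM in any blastocyst library and at most 0.00497 FPKM in any 2-cell library. The fetal growth factor Igf2 had 1.26, 0.761 and 1.04 FPKM in libraries labelled Fzr1-OE, against 1.05 and 1.72 FPKM in Control blastocysts. In 2-cell embryos Igf2 was listed at 0 in 5 of 6 libraries and at 0.0161 FPKM in IVF replicate 1. Its neighbour H19, a non-coding RNA expressed from the other allele, had at most 0.836 FPKM in blastocysts and 0.0543 FPKM in 2-cell embryos.

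The growth-repressing adaptor gene Grb10 was another low gene, at 0.0373 to 0.290 FPKM in blastocysts and 0.0172 to 1.95 FPKM in 2-cell embryos. Mest is a gene of the alpha/beta-hydrolase family whose printed promoter window held 2 hexamers. It had 2.92, 2.81 and 5.62 FPKM in the libraries labelled Fzr1-OE, against 2.56 and 2.12 FPKM in Control blastocysts. The placental transcription factor gene Ascl2 reached 1.22 FPKM in 1 library labelled Fzr1-OE and 5.06 FPKM in sIVF replicate 2, and was listed at 0 in the other 5 libraries of 2-cell embryos. Of the 45 genes, 18 passed a test, reached a group mean of 10 FPKM or differed by at least 2 on the log2 scale between groups, and these are described one by one. The highest value among the other 27 was 5.62 FPKM for Mest in blastocysts and 9.73 FPKM for Zrsr1 in 2-cell embryos.

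Most imprinted genes that passed the filter differed between Control blastocysts and WT 2-cell embryos, in both directions, as did most of all loci tested. Of 20 genes that passed the filter of a mean of at least 1 FPKM, 10 were higher and 5 lower in Control blastocysts at an adjusted p under 0.05 in limma, a linear model with a moderated spread. Of all 9761 loci tested, 65.4% passed, with 45.8% higher and 19.5% lower, so 15 of 20 (75.0%) was near the background. The filter used the mean over all 11 libraries, for all loci alike, so a gene near 0 in 1 stage could enter through the other. Slc38a4, Cd81, Sfmbt2, Sgce and Copg2 had a mean under 1 FPKM over the 2-cell libraries and entered through the blastocysts. Usp29 entered through the 2-cell embryos. For these genes the filter and the direction of the difference are tied. The median log2 difference was 1.50 over the 20 genes and 0.88 over all loci. Quantile normalization, which gives every library the same distribution, moved the median of all loci to -0.02. It also turned the split of all calls from 4472 higher and 1908 lower to 2828 higher and 3035 lower, and that of the imprinted genes to 7 higher and 6 lower. The log2 difference of a gene between the stages is therefore followed by its value relative to the median of all loci, except under an alternative setting. Depth was greater in blastocysts, and the labels do not say whether the stages were prepared together, so stage and preparation cannot be told apart.

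**Figure D2:**
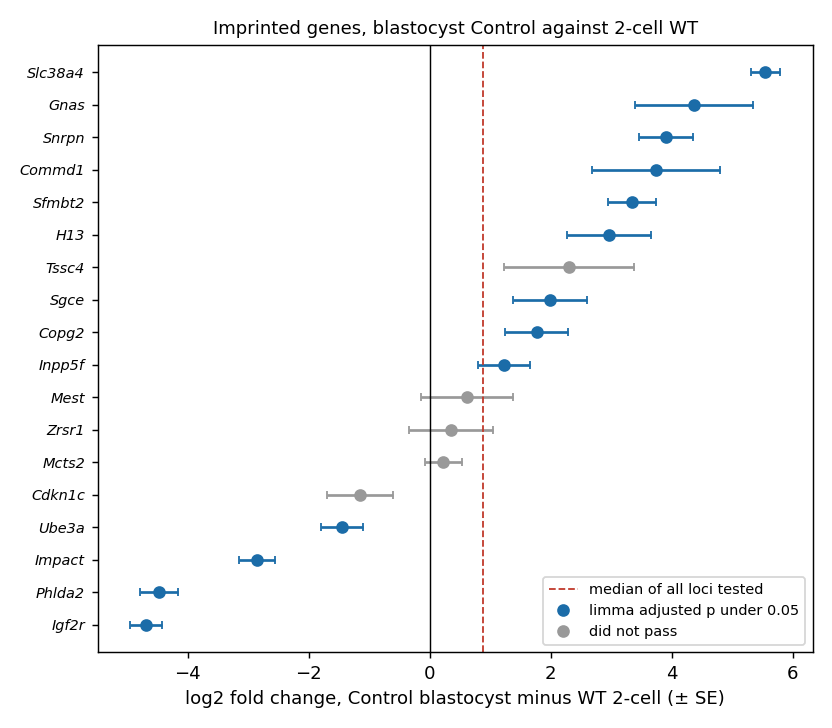
Log2 difference on the log2(FPKM + 1) scale, Control blastocysts (n = 2) minus WT 2-cell embryos (n = 2), for the tested imprinted genes whose mean was above 0.001 FPKM in both groups, with bars for the SE of the limma fit. A single library listed at 0 did not exclude a gene, as for Slc38a4 in WT. Slc38a4, Gnas and Snrpn stand at the high end at 5.55, 4.36 and 3.90, Igf2r and Phlda2 at the low end at -4.69 and -4.47, and the dashed line marks the median of all loci tested at 0.88.

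Genes that were higher in Control blastocysts included a transporter, a polycomb-group gene and a spliceosome gene. Slc38a4, an amino acid transporter of the placenta, had 42.5 and 51.0 FPKM in Control blastocysts, against 0 and 0.0364 FPKM in WT 2-cell embryos. It was listed at 0 in all 4 libraries of sIVF and IVF embryos. Its log2 difference was 5.55 (4.66 relative to the median, SE 0.24, adjusted p = 3.7e-07). Sfmbt2, a polycomb-group gene required for placental trophoblast, had 10.9 and 15.6 FPKM in Control blastocysts, against 0.894 and 0.00888 FPKM in WT 2-cell embryos. All blastocyst libraries lay above all 2-cell libraries for Sfmbt2, whose log2 difference was 3.34 (2.46 relative to the median, adjusted p = 9.3e-05).

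Snrpn had 359 and 337 FPKM in Control blastocysts, against 30.4 and 16.3 FPKM in WT 2-cell embryos. The stages did not overlap, and the log2 difference was 3.90 (3.02 relative to the median, SE 0.45, adjusted p = 7.64e-05). The Snrpn locus overlaps that of Snurf, whose reading frame lies on the same transcript, over 22655 bases, so their values may share reads. Snurf had 18.6 and 17.4 FPKM in Control blastocysts, against 1.55 and 1.21 FPKM in WT 2-cell embryos. Gnas, which encodes the stimulatory G protein alpha subunit, had 55.7 and 43.2 FPKM in Control blastocysts, against 4.61 and 0.0553 FPKM in WT 2-cell embryos. The WT values of Gnas lay far apart, and the log2 difference was 4.36 (3.48 relative to the median, SE 0.98, adjusted p = 0.00377).

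Cd81, a tetraspanin gene of the Kcnq1 cluster on chromosome 7, had 18.8 and 20.6 FPKM in Control blastocysts and was listed at 0 in both WT 2-cell libraries. No fold is given against 0, and the adjusted p was 1.28e-06. H13, which encodes signal peptide peptidase, had 21.0 and 23.4 FPKM in Control blastocysts, against 0.773 and 3.98 FPKM in WT 2-cell embryos (log2 difference 2.96, 2.08 relative to the median, adjusted p = 0.00505). Commd1, which encodes a regulator of copper transport and NF-kB, had 137 and 134 FPKM in Control blastocysts, against 16.7 and 4.95 FPKM in WT 2-cell embryos. Its log2 difference was 3.74 (2.85 relative to the median, SE 1.05, adjusted p = 0.0122). The call of Commd1 was lost without WT replicate 2 (adjusted p = 0.0776), Control replicate 1 (0.0568) or Control replicate 2 (0.0536) and with a pseudocount of 0.1 FPKM (0.0508), within a range of 0.0109 to 0.0776 over 10 alternatives.

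The other 3 rises were small in FPKM. Sgce, which encodes epsilon-sarcoglycan, had 3.04 and 3.34 FPKM in Control blastocysts, against 0.108 and 0 FPKM in WT 2-cell embryos (log2 difference 1.99, 1.11 relative to the median, adjusted p = 0.0183). Copg2, which encodes a subunit of the COPI vesicle coat, had 3.12 and 2.94 FPKM in Control blastocysts, against 0.264 and 0.107 FPKM in WT 2-cell embryos (log2 difference 1.77, 0.88 relative to the median, adjusted p = 0.0155). Inpp5f, an inositol phosphatase gene, had 4.05 and 4.01 FPKM in Control blastocysts, against 0.398 and 2.32 FPKM in WT 2-cell embryos. Its log2 difference of 1.22 was 0.34 relative to the median (adjusted p = 0.0315). The call of Sgce was lost without any single 1 of the 4 libraries compared (adjusted p 0.0505 to 0.0771). That of Copg2 was lost without WT replicate 2 (0.0612), Control replicate 1 (0.0669) or Control replicate 2 (0.0589). That of Inpp5f was lost without WT replicate 1 (0.198), Control replicate 1 (0.106) or Control replicate 2 (0.103), with a pseudocount of 0.1 FPKM (0.0537) and with no filter (0.0639), and its log2 difference was 0.60 without WT replicate 1 and 1.85 without WT replicate 2. With quantile normalization none of the 3 passed, and over 9 alternatives the adjusted p ran from 0.0140 to 0.162 for Sgce, from 0.0158 to 0.355 for Copg2 and from 0.00384 to 0.601 for Inpp5f.

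The 5 genes that were lower in Control blastocysts included the 3 with the highest levels in WT 2-cell embryos. Phlda2 had 12.9 and 6.47 FPKM in Control blastocysts, against 252 and 200.0 FPKM in WT 2-cell embryos (log2 difference -4.47, -5.35 relative to the median, adjusted p = 4.71e-06). Igf2r, the receptor that clears the growth factor IGF2, had 1.53 and 2.15 FPKM in Control blastocysts, against 67.0 and 76.8 FPKM in WT 2-cell embryos. Its log2 difference was -4.69 (-5.57 relative to the median, SE 0.26, adjusted p = 1.28e-06). The antisense RNA Airn overlaps Igf2r over 28396 bases and had at most 2.94 FPKM in any library. Impact, a regulator of the kinase GCN2 that senses amino acid shortage, had 8.22 and 10.1 FPKM in Control blastocysts, against 54.9 and 94.2 FPKM in WT 2-cell embryos (log2 difference -2.85, -3.73 relative to the median, adjusted p = 4.01e-05).

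Usp29, a deubiquitinase-family gene beside Peg3, was listed at or near 0 in Control blastocysts (2.67e-08 and 0 FPKM), against 7.77 and 9.12 FPKM in WT 2-cell embryos (adjusted p = 9.58e-06). Across all 6 libraries of 2-cell embryos it lay between 7.32 and 9.75 FPKM, and across all 5 blastocyst libraries between 0 and 0.171 FPKM. Peg3, a zinc finger gene whose locus ends 163 bases from that of Usp29 and whose promoter window overlaps that printed above, had 0.113 to 0.509 FPKM in libraries labelled Fzr1-OE, against 0.0490 to 0.416 FPKM in Control blastocysts. In 2-cell embryos Peg3 was listed at 0 in 4 of 6 libraries and reached 0.939 FPKM in sIVF replicate 2, so the neighbours differed in level at the 2-cell stage. Ube3a, an E3 ubiquitin ligase gene, had 4.69 and 5.47 FPKM in Control blastocysts, against 13.4 and 17.9 FPKM in WT 2-cell embryos (log2 difference -1.44, -2.33 relative to the median, adjusted p = 0.00531).

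Several imprinted genes did not pass between the stages. Mcts2, a retrogene of the translation factor gene Mcts1 that sits inside H13, had 31.7 and 22.6 FPKM in Control blastocysts, against 20.1 and 25.7 FPKM in WT 2-cell embryos. Its log2 difference was 0.23 (-0.66 relative to the median, adjusted p = 0.534). It turned to -0.66 with quantile normalization, and the groups overlapped. Mcts1 on chromosome X had 37.1 and 35.4 FPKM in Control blastocysts, against 29.2 and 20.2 FPKM in WT 2-cell embryos, and reads of a retrogene and its parent gene may have been split between them. Tssc4, a gene of the Kcnq1 cluster, had 10.1 and 16.1 FPKM in Control blastocysts, against 5.95 and 0.119 FPKM in WT 2-cell embryos (log2 difference 2.30, 1.42 relative to the median, adjusted p = 0.0872), and it passed without WT replicate 1 (adjusted p = 0.0235, within 0.0235 to 0.471 over 10 alternatives). The CDK inhibitor gene Cdkn1c had 0 and 1.39 FPKM in Control blastocysts, against 1.69 and 3.39 FPKM in WT 2-cell embryos (log2 difference -1.15, -2.04 relative to the median, adjusted p = 0.0922), and it passed with quantile normalization and without Control replicate 2 (adjusted p 0.0106 to 0.498 over 9 alternatives). Mest and Zrsr1, a splicing factor retrogene, were the other 2 tested genes that did not pass.

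The calls of Slc38a4, Cd81, Gnas, Snrpn, Sfmbt2, H13, Phlda2, Igf2r, Impact, Usp29 and Ube3a held in every alternative that tested them. A pseudocount of 0.1 FPKM in place of 1 enlarged the log2 difference of genes near 0 in WT 2-cell embryos, to 8.64 for Slc38a4, 5.32 for Sfmbt2, 4.51 for Sgce and 3.51 for Copg2. Quantile normalization moved that of Ube3a to -2.26.

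In blastocysts, Cd81 was the only 1 of 21 tested imprinted genes to differ between the libraries labelled Fzr1-OE and Control at an adjusted p under 0.05. It had 38.8, 34.6 and 29.7 FPKM in libraries labelled Fzr1-OE, against 18.8 and 20.6 FPKM in Control. All 3 libraries labelled Fzr1-OE lay above both Control libraries, and the log2 difference was 0.76 (SE 0.14, adjusted p = 0.0192, limma). Of all 9438 loci tested, 398 passed (4.22%), with 217 higher (2.3%) and 181 lower (1.92%), so 1 of 21 (4.76%) was at the background. The median log2 difference was 0.04 over the 21 genes and 0.01 over all loci. The call of Cd81 was lost without replicate 2 of the libraries labelled Fzr1-OE (adjusted p = 0.0685), without Control replicate 1 (0.121), without Control replicate 2 (0.114), with no filter (0.127) and with no intensity trend (0.133), within a range of 0.0123 to 0.133 over 11 alternatives. The count of 398 was 0 with no filter and 41 with no intensity trend. It fell to 210 without replicate 2 of the libraries labelled Fzr1-OE, to 185 without replicate 3, to 177 without Control replicate 1 and to 87 without Control replicate 2.

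**Figure D3:**
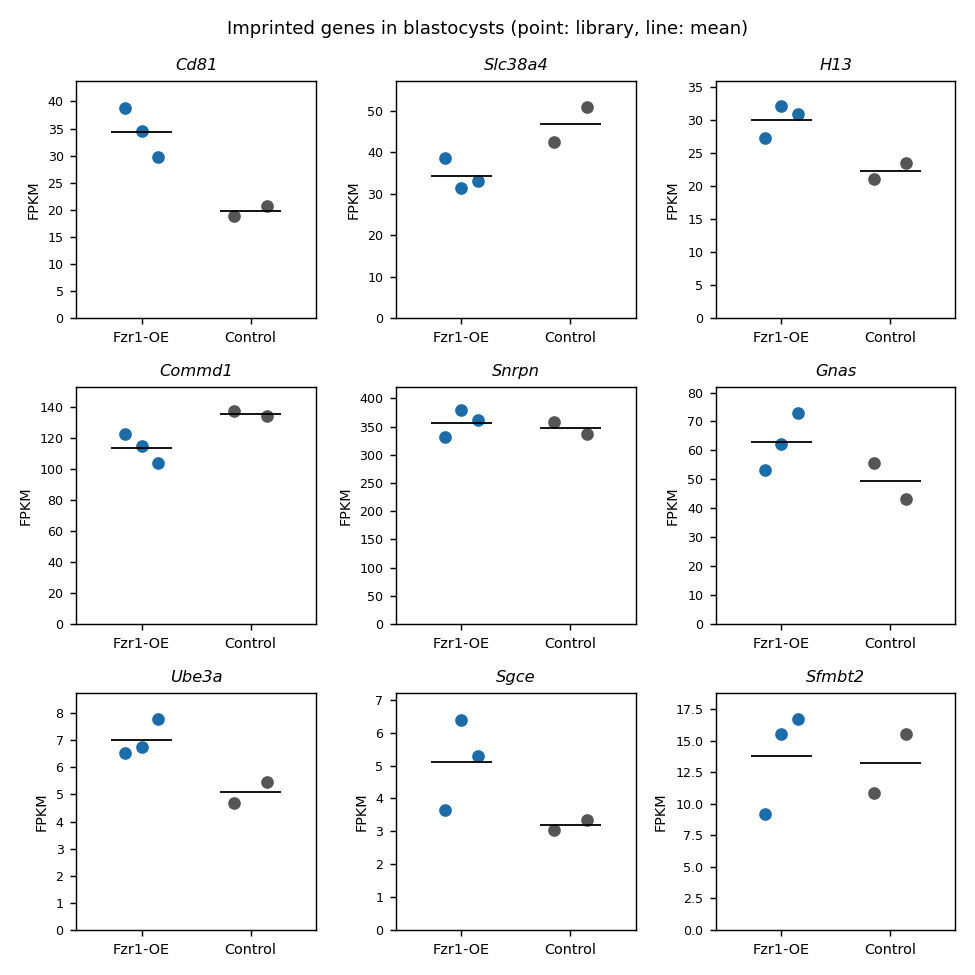
FPKM of 9 imprinted genes in blastocyst libraries labelled Fzr1-OE (n = 3) and Control (n = 2), with points for libraries and lines for group means, each axis starting at 0. Cd81 is the gene that passed, at 29.7 to 38.8 FPKM in libraries labelled Fzr1-OE, against 18.8 to 20.6 FPKM in Control, while Snrpn, Gnas and Sfmbt2 overlap between the groups.

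The groups did not overlap for 9 of the 21 tested imprinted genes (42.9%), against 37.4% of all 9438 loci, and 8 of the 9 missed the threshold. Slc38a4 had 38.6, 31.4 and 33.0 FPKM in libraries labelled Fzr1-OE, against 42.5 and 51.0 FPKM in Control (log2 difference -0.43, adjusted p = 0.108). H13 had 27.2, 32.1 and 30.9 FPKM in libraries labelled Fzr1-OE, against 21.0 and 23.4 FPKM in Control (log2 difference 0.42, adjusted p = 0.113). Commd1 had 122, 115 and 104 FPKM in libraries labelled Fzr1-OE, against 137 and 134 FPKM in Control (log2 difference -0.26, adjusted p = 0.154). For Slc38a4 and Commd1 every library labelled Fzr1-OE lay below both Control libraries, and for H13 every one lay above. Ube3a had 6.52, 6.76 and 7.80 FPKM in libraries labelled Fzr1-OE, against 4.69 and 5.47 FPKM in Control (log2 difference 0.40, adjusted p = 0.298). Sgce had 3.64, 6.39 and 5.29 FPKM in libraries labelled Fzr1-OE, against 3.04 and 3.34 FPKM in Control (log2 difference 0.52, adjusted p = 0.295). Inpp5f had 2.42, 3.07 and 2.37 FPKM in libraries labelled Fzr1-OE, against 4.05 and 4.01 FPKM in Control (log2 difference -0.48, adjusted p = 0.285). The other 2 were Mest, given above and higher in every library labelled Fzr1-OE, and Ppp1r9a, which encodes a neuronal actin-binding protein. Ppp1r9a had 0.670, 1.05 and 1.14 FPKM in libraries labelled Fzr1-OE, against 1.21 and 1.19 FPKM in Control. At an unadjusted p under 0.05 stood 5 of the 21 genes (23.8%), namely Cd81, Slc38a4, H13, Commd1 and Cdkn1c, against 19.7% of all loci.

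Snrpn, Gnas and Mcts2 overlapped between the groups. Snrpn had 331, 380 and 361 FPKM in libraries labelled Fzr1-OE, against 359 and 337 FPKM in Control. Gnas had 53.1, 62.1 and 73.0 FPKM in libraries labelled Fzr1-OE, against 55.7 and 43.2 FPKM in Control. Mcts2 had 28.5, 39.7 and 33.1 FPKM in libraries labelled Fzr1-OE, against 31.7 and 22.6 FPKM in Control. For each of the 3 genes at least 1 Control library lay within the range of the libraries labelled Fzr1-OE. Sfmbt2 had 9.20, 15.6 and 16.7 FPKM in libraries labelled Fzr1-OE, against 10.9 and 15.6 FPKM in Control. Tssc4, whose locus lies beside Cd81, had 12.9, 15.4 and 15.9 FPKM in libraries labelled Fzr1-OE, against 10.1 and 16.1 FPKM in Control. Phlda2 had 12.7, 8.23 and 8.14 FPKM in libraries labelled Fzr1-OE, against 12.9 and 6.47 FPKM in Control, so the 3 genes of the Kcnq1 cluster that were read at over 5 FPKM did not all differ as Cd81 did.

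Genes of lower level in blastocysts also overlapped, apart from Usp29, which was at or near 0 in both groups. Impact had 10.4, 8.88 and 7.94 FPKM in libraries labelled Fzr1-OE, against 8.22 and 10.1 FPKM in Control. Igf2r had 1.37, 1.84 and 2.46 FPKM in libraries labelled Fzr1-OE, against 1.53 and 2.15 FPKM in Control. Copg2 had 4.29, 2.30 and 0.927 FPKM in libraries labelled Fzr1-OE, against 3.12 and 2.94 FPKM in Control, with the widest spread of these among the libraries labelled Fzr1-OE. Cdkn1c had 1.06, 3.71 and 4.12 FPKM in libraries labelled Fzr1-OE, against 0 and 1.39 FPKM in Control (log2 difference 1.25, adjusted p = 0.185). Usp29 had 0.148, 2.88e-08 and 0.171 FPKM in libraries labelled Fzr1-OE, against 2.67e-08 and 0 FPKM in Control.

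Most trophectoderm markers were lower in the libraries labelled Fzr1-OE, while the means of Tfap2c (22.9 against 18.9 FPKM) and Cdx2 (8.36 against 7.99 FPKM) were higher. The 9 markers summed to 3594 to 3667 FPKM in libraries labelled Fzr1-OE, against 5740 to 5774 FPKM in Control, and most of each sum came from Krt8 and Krt18. For 6 of the 9 every library labelled Fzr1-OE lay below both Control libraries. The groups did not overlap, in either direction, for 37.4% of all 9438 loci tested. The 6 markers of primitive endoderm summed to 31.3 to 34.3 FPKM in libraries labelled Fzr1-OE, against 21.6 to 24.7 FPKM in Control, with 1 of 6 higher in every library labelled Fzr1-OE. Gata6 made up most of these sums, and the mean of Pdgfra was lower (2.55 against 3.03 FPKM). Foxa2 was listed at 0 in all 5 blastocyst libraries. The 6 markers of inner cell mass and epiblast summed to 192 to 224 FPKM in libraries labelled Fzr1-OE, against 199 to 208 FPKM in Control, so their sums overlapped, with 2 of 6 higher in every library labelled Fzr1-OE. In whole embryos, fewer cells of a type and less RNA per cell cannot be told apart, and the part of these markers in the values of Cd81 and the other imprinted genes was not tested.

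At the 2-cell stage no imprinted gene passed in any of the 3 comparisons. Of 16 genes tested, 0 passed for sIVF against WT, against 0% of 8245 loci. For IVF against WT 0 of 16 passed, against 0.0121% of loci, and for sIVF against IVF 0 of 16 passed, against 0% of loci. At an unadjusted p under 0.05 stood 1 of the 16 for sIVF against WT (6.25%, against 7.10% of all loci), 2 for IVF against WT (12.5%, against 12.4%) and 3 for sIVF against IVF (18.8%, against 11.8%). The comparisons share libraries. The median log2 difference of the 16 genes was 0.05 for sIVF against WT, 0.43 for IVF against WT and -0.22 for sIVF against IVF, beside 0.06, 0.09 and -0.02 over all loci. With 2 libraries a group, a p that misses the threshold does not show that the levels are alike. The share of all loci whose groups do not overlap was not counted at this stage. Overlap between 2-cell groups, or the lack of it, is therefore given only as a description of the libraries.

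**Figure D4:**
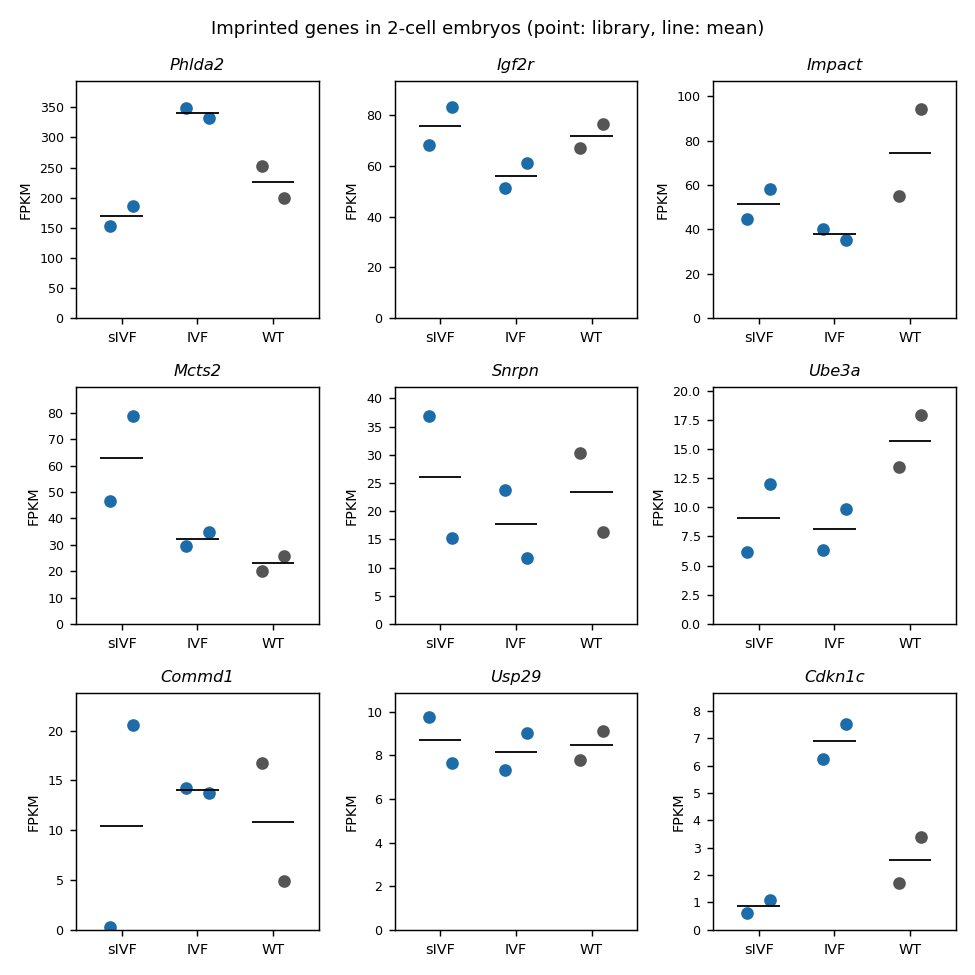
FPKM of 9 imprinted genes in 2-cell embryos labelled sIVF, IVF and WT (n = 2 each), with points for libraries and lines for group means, each axis starting at 0. Phlda2 lies at 154 to 187 FPKM in sIVF, 333 to 348 FPKM in IVF and 200.0 to 252 FPKM in WT, and no gene shown passed the test.

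Phlda2 came nearest to the threshold. It had 154 and 187 FPKM in sIVF embryos, 348 and 333 FPKM in IVF embryos, and 252 and 200.0 FPKM in WT embryos. No 2 groups overlapped, with IVF highest and sIVF lowest. The log2 difference was -1.0 for sIVF against IVF (SE 0.20, unadjusted p = 8.56e-04, adjusted p = 0.124, limma), 0.60 for IVF against WT (adjusted p = 0.296) and -0.41 for sIVF against WT (adjusted p = 0.739). Cdkn1c, its neighbour in the same cluster, had 0.628 and 1.09 FPKM in sIVF embryos, 6.26 and 7.53 FPKM in IVF embryos, and 1.69 and 3.39 FPKM in WT embryos. The order of the groups was the same as for Phlda2, with a log2 difference of -2.09 for sIVF against IVF (adjusted p = 0.252) and 1.19 for IVF against WT (adjusted p = 0.494).

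Mcts2 had 46.7 and 78.7 FPKM in sIVF embryos, 29.7 and 34.9 FPKM in IVF embryos, and 20.1 and 25.7 FPKM in WT embryos. The 3 groups did not overlap, and the log2 difference was 1.38 for sIVF against WT (SE 0.35, adjusted p = 0.481) and 0.89 for sIVF against IVF (adjusted p = 0.36). Its parent gene Mcts1 had 41.2 and 24.3 FPKM in sIVF embryos, 18.1 and 25.1 FPKM in IVF embryos, and 29.2 and 20.2 FPKM in WT embryos, which overlap. H13, around Mcts2, had 5.11 and 0.800 FPKM in sIVF embryos, 2.22 and 8.66 FPKM in IVF embryos, and 0.773 and 3.98 FPKM in WT embryos, also with overlap. Impact had 44.6 and 58.2 FPKM in sIVF embryos, 40.1 and 35.3 FPKM in IVF embryos, and 54.9 and 94.2 FPKM in WT embryos. For IVF against WT its log2 difference was -0.92 (adjusted p = 0.327), with no overlap between those groups. Igf2r had 68.2 and 83.5 FPKM in sIVF embryos, 51.3 and 61.0 FPKM in IVF embryos, and 67.0 and 76.8 FPKM in WT embryos. The sIVF and WT libraries of Igf2r overlapped, and the IVF libraries lay below both.

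Other expressed genes spread widely between libraries of 1 group. Snrpn had 37.0 and 15.2 FPKM in sIVF embryos, 23.8 and 11.7 FPKM in IVF embryos, and 30.4 and 16.3 FPKM in WT embryos, all overlapping. Commd1 had 0.283 and 20.6 FPKM in sIVF embryos, 14.2 and 13.8 FPKM in IVF embryos, and 16.7 and 4.95 FPKM in WT embryos. Its log2 difference for sIVF against IVF was -1.51 (adjusted p = 0.665), and 0.53 without sIVF replicate 1. Gnas had 0.133 and 1.89 FPKM in sIVF embryos, 0.182 and 7.52 FPKM in IVF embryos, and 4.61 and 0.0553 FPKM in WT embryos. Ube3a had 6.13 and 12.0 FPKM in sIVF embryos, 6.35 and 9.87 FPKM in IVF embryos, and 13.4 and 17.9 FPKM in WT embryos, where WT lay above the rest.

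Usp29 had close levels in all 6 libraries of this stage. It had 9.75 and 7.63 FPKM in sIVF embryos, 7.32 and 9.02 FPKM in IVF embryos, and 7.77 and 9.12 FPKM in WT embryos. Tssc4 had 9.77 and 0 FPKM in sIVF embryos, 6.58 and 4.17 FPKM in IVF embryos, and 5.95 and 0.119 FPKM in WT embryos. Its log2 difference for IVF against WT was 1.17 (adjusted p = 0.761), and -0.15 without WT replicate 2. Mest had 6.87 and 4.89 FPKM in sIVF embryos, 3.02 and 0.150 FPKM in IVF embryos, and 3.72 and 1.36e-05 FPKM in WT embryos. Both sIVF libraries of Mest lay above the other 4, with a log2 difference of 1.66 against IVF (adjusted p = 0.547) and 1.65 against WT (adjusted p = 0.767).

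The remaining named genes were low at the 2-cell stage. Sgce was listed at 0 in both sIVF libraries and had 0.0760 and 4.26 FPKM in IVF embryos, and 0.108 and 0 FPKM in WT embryos. Inpp5f had 0.942 and 1.20 FPKM in sIVF embryos, 1.11 and 2.68 FPKM in IVF embryos, and 0.398 and 2.32 FPKM in WT embryos. Copg2 had 0.384 and 1.72 FPKM in sIVF embryos, 0.979 and 0.0396 FPKM in IVF embryos, and 0.264 and 0.107 FPKM in WT embryos. All groups overlapped for Inpp5f, while both sIVF libraries of Sgce lay below both IVF libraries and both sIVF libraries of Copg2 lay above both WT libraries. Sfmbt2 had 0.105 and 0.229 FPKM in sIVF embryos, 0.00736 and 0 FPKM in IVF embryos, and 0.894 and 0.00888 FPKM in WT embryos.

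Replicates differed more at the 2-cell stage than in blastocysts. Among imprinted genes with a group mean of at least 1 FPKM, the median range between libraries of a group on the log2(FPKM + 1) scale was 0.40 in libraries labelled Fzr1-OE and 0.26 in Control blastocysts. It was 0.87 in sIVF, 0.55 in IVF and 0.77 in WT 2-cell embryos. Over all loci chosen the same way it was 0.33, 0.19, 0.58, 0.54 and 0.59 in the same order. A range of over 1 was found for 7 of 17 imprinted genes in sIVF, 5 of 17 in IVF and 6 of 15 in WT embryos, against 2 of 20 in libraries labelled Fzr1-OE and 0 of 21 in Control blastocysts. The share of all loci with such a range was not counted. The range spans 3 libraries for Fzr1-OE and 2 in each other group.

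Sums of markers of transcripts stored in the egg differed between the 2-cell groups, without a test. Most of each sum came from Oosp1 and Zp3. The 5 oocyte markers summed to 180 to 210 FPKM in sIVF, 130 to 169 FPKM in IVF and 90.4 to 116 FPKM in WT embryos, and 3 of the 5 lay above both WT libraries in every sIVF library and 3 in every IVF library. The share of all loci that did so was not counted. Zp2 overlapped, with 0.0410 and 3.86 FPKM in sIVF embryos, against 0 and 1.23 FPKM in WT embryos. The 10 cumulus and granulosa cell markers summed to 1.38 to 5.0 FPKM in sIVF, 6.93 to 8.17 FPKM in IVF and 1.26 to 5.35 FPKM in WT embryos. The spermatogenic markers Prm1, Prm2, Tnp1 and Tnp2 summed to at most 1.43 FPKM, in an IVF library, and were listed at 0 in sIVF and WT embryos. The part of these markers in the levels of Phlda2, Mcts2 and the other imprinted genes was not tested.

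A list of 25 genes linked to imprints or to DNA and histone methylation, called maintenance factors here, includes Zfp57, Trim28, Dnmt1, Uhrf1, Dnmt3a, Ezh2 and Tet3. Of the 25, 22 were tested in blastocysts and 1 passed (4.55%, against 4.22% of all loci). This was Dppa3, which protects the maternal genome from loss of methylation. Dppa3 had 3925, 4153 and 4108 FPKM in libraries labelled Fzr1-OE, against 3301 and 3255 FPKM in Control (log2 difference 0.31, SE 0.04, adjusted p = 0.00512). Its call was lost without replicate 3 of the libraries labelled Fzr1-OE (adjusted p = 0.0521) or Control replicate 2 (0.0632), with no filter (0.127) and with no intensity trend (0.266), within a range of 0.000399 to 0.266 over 11 alternatives. At the 2-cell stage 0 of 24 tested factors passed in each of the 3 comparisons, and the unadjusted p was under 0.05 for 2 in sIVF against WT (8.33%, against 7.10% of all loci), 4 in IVF against WT (16.7%, against 12.4%) and 4 in sIVF against IVF (16.7%, against 11.8%). Dppa3 had 6020 and 5355 FPKM in sIVF embryos, 3891 and 4379 FPKM in IVF embryos, and 5400 and 5611 FPKM in WT embryos. Zfp57 had 42.6 and 24.7 FPKM in sIVF embryos, 19.3 and 25.7 FPKM in IVF embryos, and 10.1 and 14.4 FPKM in WT embryos. Between Control blastocysts and WT 2-cell embryos 10 of 25 were higher and 7 lower, a share of 68.0% beside 65.4% of all loci.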

How the data were processed

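RNA was measured in whole embryos. Per the labels' protocols, lysates were reverse transcribed and the cDNA was amplified (18 to 20 cycles) before library construction. Whether counting used strand is not stated, so overlapping loci may share reads (Mcts2 with H13, Zrsr1 with Commd1, Snrpn with Snurf, Mest with Copg2). Per the file headers, the deposited values are FPKM, one table a library, with a lower and an upper confidence bound. Tools listed in the submitters' processing notes include Cufflinks 2.2.1, Cuffdiff and HISAT2 2.1.0, and the build listed is mm9. The authors' deposited tables for fat hold ontology terms, each with a Fisher p-value, per the file headers, and were used only for the symbols they name.

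Groups came from sample titles. Nothing in the labels ties replicates to separate cultures or animals, so p-values cover the spread among these libraries alone, which may be technical. log2(FPKM + 1) values of loci averaging 1 FPKM or more entered limma 3.58.1 (R 4.3.3) with an intensity trend, Benjamini-Hochberg adjustment over all loci tested and a two-sided threshold of 0.05. This scale understates differences of low genes. A fit of the 6 2-cell libraries and a fit of the 5 blastocyst libraries were made, and all 11 entered the comparison of stages. A locus with a failed estimate (1 of 24708) was left out. Depth was read from the bounds as if they spanned 2 Poisson standard deviations on either side, and covers counting error only. Steps were tested on simulated data. The genes, the lists and the tests were chosen with earlier results of these data known. Named genes are those that passed a comparison, reached a group mean of 10 FPKM or differed by at least 2 on the log2 scale. Other settings tried were quantile normalization, a replicate block, no trend, another pseudocount (0.1), another filter (none, or 5 FPKM) and leaving out each library. The H3K9me3 libraries were not analysed here. Python 3.11.15, pandas 2.3.3, numpy 2.4.6 and matplotlib 3.10.9 were also used.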

Additional observations from a re-analysis of the deposited data

How the results depend on the processing

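The count of imprinted genes called stayed at 0 in the 3 comparisons of 2-cell embryos under every alternative run, and lay between 11 and 17 for Control blastocysts against WT 2-cell embryos. For blastocyst libraries labelled Fzr1-OE against Control the imprinted gene (Cd81) and the imprint maintenance factor (Dppa3) that passed gave counts of 0 with no filter and with no intensity trend, and of 0 to 1 when a library was left out. The count over all loci was 398 there, against 0 with no filter, 41 with no trend and 87 to 350 when a library was left out. For IVF against WT the count over all loci was 1, against 0 with a pseudocount of 0.1, no filter, quantile normalization or no trend, 21 with a filter of 5 FPKM, and 0 to 0 when a library was left out. For sIVF against IVF it was 0, against 32 with the filter of 5 FPKM and 15 with quantile normalization. The causes were not tested. Of 427 values of single genes under an alternative, 389 kept direction and side of the threshold, 30 lost the call, 4 gained it and 4 reversed: Tssc4 for IVF against WT (-0.15 to 2.48 when a library was left out, negative without WT replicate 2), Commd1 for sIVF against IVF (-3.55 to 0.53, positive without sIVF replicate 1), and Mcts2 between the stages (-0.66 with quantile normalization, and -0.0083 to 0.46 when a library was left out, negative without Control replicate 1).

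Replicate numbers did not pair the libraries: same-numbered libraries had correlations of their deviations between -0.039 and 0.074. With the replicate block the count for libraries labelled Fzr1-OE against Control fell to 48 over all loci, 0 imprinted genes (Cd81 adjusted p = 0.0981) and 0 maintenance factors (Dppa3 0.194), and stood at 1 locus for IVF against WT and 16 imprinted genes between the stages, where Cdkn1c passed (0.0313).

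Groups held 2 or 3 libraries, and counting error was up to 32.6% at about 1 FPKM in 2-cell embryos. Small differences of low genes were not detectable at this depth, and simulated data showed larger ones missed as well. Of 100 genes changed 2-fold there, 6% were recovered for sIVF against WT, 12% for IVF against WT and 7% for sIVF against IVF. Of 100 changed 4-fold, 51%, 53% and 43% were recovered in that order. A gene that missed the threshold at the 2-cell stage may thus still differ 2-fold or 4-fold. Control blastocysts against WT 2-cell embryos gave 9% and 57% in the simulated data, with 100 genes changed at each size. In the real comparison 6380 of 9761 loci passed. An adjusted p depends on how many of the loci tested differ, so these shares do not carry over to it. Libraries labelled Fzr1-OE against Control gave 95% and 99% with 21 false calls. Recovery was not split by level, so these shares need not hold for low genes, and the real calls there varied with the filter, as given above.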

Other observations

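Fat under the skin of adult mice (Fzr1-OE against Control) is represented by ontology tables that the authors deposited, which were searched for the 45 imprinted genes. The RNA table holds 1605 terms that name 449 distinct symbols, and 0 of the 45 genes were among them. The table for reduced-representation bisulfite sequencing holds 632 terms that name 119 distinct symbols, again with 0 of the 45 genes. The symbols are those listed under terms, and how the authors selected genes for these tables is not given in the sources used here, so a missing symbol says nothing of the gene's level or methylation.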
